A study of Mus musculus with 2 samples.

Results

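Molecular chaperones are the proteins that fold, hold, disassemble and sort other proteins, and co-chaperones steer them. The genes described here are the 86 of 55536 annotated mouse genes, or 0.390% of 22028 protein-coding genes, that have a protein-coding transcript and a symbol of the HSP70 and HSP110 (Hspa, Hsph1), HSP90, mitochondrial HSP60 and HSP10 (Hspd1, Hspe1), small heat shock protein (Hspb), J-domain (Dnaja, Dnajb, Dnajc), cytosolic chaperonin (Cct) or BAG series. The rule reads the symbol and the annotation and uses no measured value. The libraries are total RNA from left cerebral cortex, taken from males of the B6CASTF1/J cross aged 25 days, and 300 ng of RNA entered each. B6CASTF1/J is a first-generation cross of C57BL/6J and CAST/EiJ, so 1 of the 2 alleles of a gene comes from a strain that is not the reference strain, and what that does to the counts was not tested. There was 1 group of 2 samples, replicate 1 and replicate 2, with no treatment and no control group. Both carry the same donor entry in the labels, so separate animals are assumed rather than stated, and the SD over them may be technical in part.

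With 1 group no test between groups was possible. Values are given for both replicates, as the mean ± SD where that helps, in TPM, a level corrected for transcript length and library size. Detection means at least 1 TPM in each replicate. The difference between replicates is log2 of TPM + 0.5, replicate 1 over replicate 2, which understates the differences of low genes, and a difference of at least 1.5-fold is called large. The libraries held 30503944 and 33263801 expected counts. Among markers of the cells of a cortex piece, all 8 neuronal genes were detected, with a median of 458 in replicate 1 and 442 TPM in replicate 2. In a tissue piece, fewer cells of a type and less RNA per cell cannot be told apart.

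HSP70 proteins bind stretches of unfolded protein in a cycle driven by ATP. J-domain proteins deliver the clients and start ATP hydrolysis, and HSP110 and BAG proteins release the nucleotide. HSP90 takes clients that are partly folded, among them kinases and steroid receptors, CCT closes around actin and tubulin, and HSP60 with HSP10 does the like in mitochondria. Small heat shock proteins hold unfolding proteins without ATP. Some of these genes are transcribed in every cell (HSC70, the product of Hspa8, is the textbook case), while others are driven by heat shock factor 1 when proteins unfold. Neurons are known for a high threshold of that heat shock response. At synapses, HSC70 with auxilin (Dnajc6) strips clathrin from vesicles, and with cysteine string protein (Dnajc5) keeps the release machinery folded.

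Of the 86 genes, 73 were detected. By mean level, 12 stood at 100 TPM or more on average, 43 between 10 and 100 TPM, and 18 were detected below 10 TPM. All 86 together summed to 5392 in replicate 1 and 5502 TPM in replicate 2, which was 1.12% and 1.15% of the TPM of all protein-coding genes. The 3 highest, Hspa8, Hsp90ab1 and Hsp90aa1, made 40.3% and 41.3% of that sum.

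**Figure D1:**
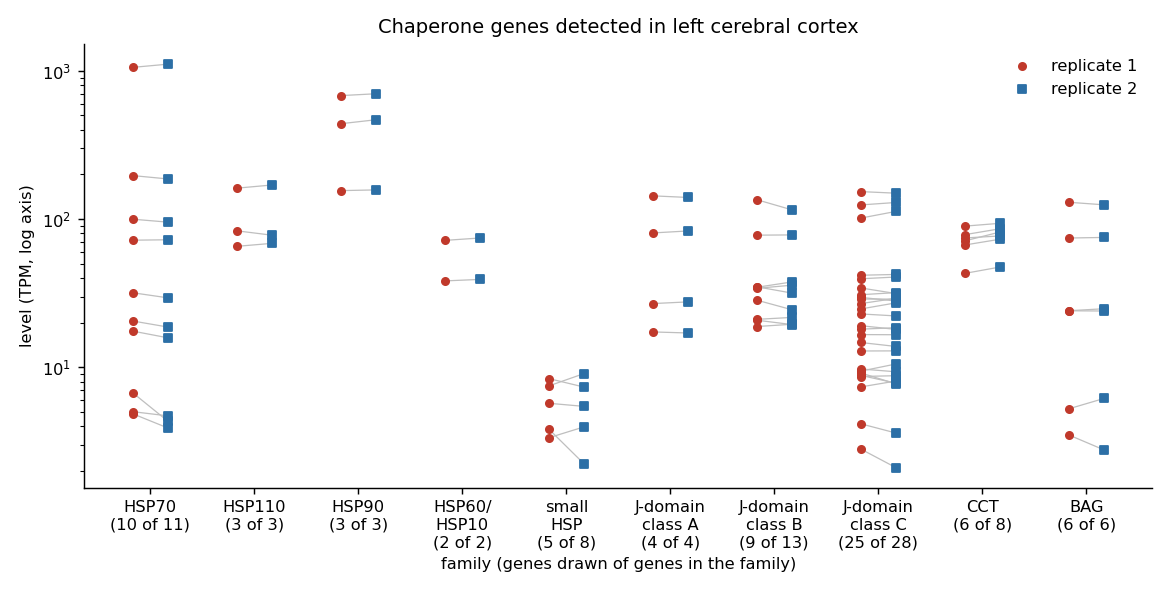
Level in TPM (log axis) of the 73 detected chaperone genes by family, replicate 1 as red circles left of replicate 2 as blue squares, with a line joining each gene. Hspa8 in the HSP70 family is the highest at 1053 and 1107 TPM, all 5 detected small heat shock protein genes stand below 10 TPM, and the 6 detected CCT genes lie close together.

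In the gene table the HSP70 family took 28.0% of chaperone TPM in both replicates, and 10 of its 11 genes were detected. In the second transcript table it took 24.8% in replicate 1 and 24.4% in replicate 2, where the HSP90 family took 24.5% and 26.1%. Hspa8 (ENSMUSG00000015656.17, mm10 chromosome 9, 40800984 to 40810087, plus strand), which makes the constitutive cytosolic HSC70, stood at 1053 in replicate 1 and 1107 TPM in replicate 2, from 35947 and 42589 expected counts. Hspa5, which makes BiP of the endoplasmic reticulum, followed at 196 in replicate 1 and 186 TPM in replicate 2. Hspa12a, a distant relative with an HSP70-like ATPase domain, stood at 99.8 and 95.3 TPM in replicates 1 and 2. The mitochondrial HSP70 gene Hspa9 (mortalin) stood at 72.0 and 72.5 TPM. At the other end, Hspa1l, a gene mostly of testis, had 0.13 in replicate 1 and 0.12 TPM in replicate 2, from about 6 counts each. The level of Hspa8 is uncertain beyond its spread: 28.2% of the 100-base windows of its transcripts occur in other genes, most of them in the processed pseudogene Gm15459, which itself was given 278 in replicate 1 and 286 TPM in replicate 2, from 10322 and 11850 expected counts. How those reads were shared between gene and pseudogene cannot be told apart from these files.

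HSP90 genes were few and abundant. Hsp90ab1, the constitutive cytosolic form (ENSMUSG00000023944.14, chromosome 17, 45567775 to 45573271, minus strand), stood at 679 in replicate 1 and 699 TPM in replicate 2. Hsp90aa1, the stress-inducible cytosolic form (ENSMUSG00000021270.13, chromosome 12, 110690605 to 110702728, minus strand), stood at 439 and 467 TPM. Hsp90b1, which makes GRP94 of the endoplasmic reticulum, stood at 155 and 157 TPM in replicates 1 and 2. The family made 23.6% of chaperone TPM in replicate 1 and 24.1% in replicate 2. Hsp90aa1 shares 38.0% of its 100-base windows with other genes, chiefly the transcribed pseudogene Gm12346 at 10.1 and 10.6 TPM. The HSP110 genes, whose products exchange the nucleotide of HSP70, followed with Hsph1 at 161 and 170 TPM, Hspa4 at 83.4 and 77.8 TPM, and Hspa4l at 65.5 and 68.6 TPM.

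J-domain genes were the most numerous, 45 of the 86. Their 3 classes together took 27.4% of chaperone TPM in replicate 1 and 26.6% in replicate 2, and 29.4% and 28.1% in the second table, so whether they or the HSP70 family led depended on the table. In class A, the general co-chaperones of HSC70, Dnaja1 stood at 143 in replicate 1 and 140 TPM in replicate 2, and Dnaja2 at 80.6 and 83.1 TPM. The mitochondrial Dnaja3 stood at 26.9 and 27.6 TPM, and Dnaja4 was the lowest of class A at 17.3 and 17.1 TPM. Class B was led by Dnajb5 at 135 in replicate 1 and 115 TPM in replicate 2, with both replicates above every other gene of the class. Next came Dnajb6, known for holding back aggregation of polyglutamine proteins, at 77.9 and 78.2 TPM. Dnajb2, whose protein is enriched in neurons, stood at 34.7 and 37.7 TPM, and Dnajb11, a BiP co-chaperone, at 34.1 and 35.8 TPM.

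Class C was led by the genes of synaptic vesicle traffic. Dnajc6, which makes auxilin, stood at 153 in replicate 1 and 149 TPM in replicate 2. Dnajc5, which makes cysteine string protein, stood at 125 and 129 TPM. Dnajc7, a co-chaperone that binds both HSP70 and HSP90, stood at 101.4 and 113 TPM, and Dnajc27, which also has a small GTPase domain, at 41.8 and 42.3 TPM. The remaining detected class C genes ran down to Dnajc25 at 2.82 and 2.11 TPM. Dnajc7 overlaps Cnp on the other strand, and whether the counting used strand is not given in the sources used here.

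Chaperonin and mitochondrial folding genes stood in the middle of the range. The 6 detected CCT genes, each of which makes a different subunit of the same ring, spanned 45.2 to 91.6 TPM on average. Their order by mean level in the gene table was Cct7, Cct5, Cct3, Cct8, Cct2 and Cct4, and the ranges of both replicates overlapped between Cct5 and Cct3 and between Cct3 and Cct8. Cct4, the lowest, stood at 43.0 and 47.5 TPM, below the next gene Cct2 at 66.8 and 73.1 TPM in both replicates. In the second transcript table the order was Cct2, Cct5, Cct8, Cct7, Cct3 and Cct4, from 150.8 to 78.9 TPM on average. There Cct4 stood above Cct3 in replicate 2, at 85.9 and 85.7 TPM, so the order depended on the table. Tcp1, which makes the alpha subunit and does not carry a Cct symbol, stood at 90.5 in replicate 1 and 91.9 TPM in replicate 2. Hspd1, which makes HSP60, stood at 71.8 and 74.5 TPM, and its co-chaperonin gene Hspe1 at 38.3 and 39.2 TPM. These neighbours lie head to head on chromosome 1, with annotated 5′ ends 111 bases apart, and their annotated spans overlap there.

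BAG genes were all detected, and the small heat shock protein genes were the lowest family. Bag6, which guards exposed hydrophobic segments of newly made proteins, stood at 130 in replicate 1 and 125 TPM in replicate 2. Bag1 stood at 74.5 and 75.2 TPM, Bag5 at 24.1 and 24.9 TPM, Bag4 at 24.08 and 23.99 TPM, and Bag3, which routes clients to autophagy, at 3.51 and 2.78 TPM. All 8 Hspb genes together summed to 29.4 in replicate 1 and 29.0 TPM in replicate 2, or 0.546% and 0.527% of chaperone TPM. Highest by mean, with a range that overlaps that of Hspb1, was Hspb11, whose product is known as a component of intraflagellar transport, at 7.49 and 9.08 TPM. Hspb1, which makes HSP25 of the mouse, stood at 8.41 and 7.37 TPM, and 44.0% of its windows are shared with the pseudogene Hsp25-ps1. Hspb8, the partner of Bag3, stood at 5.73 and 5.46 TPM, and Hspb3, known from muscle, at 3.35 and 3.97 TPM. Cryab, the related alpha-crystallin B gene that the symbol does not place here, stood at 46.1 in replicate 1 and 54.5 TPM in replicate 2, above all 8.

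The 13 genes below detection were Cct6b, Cct8l1, Dnajb3, Dnajb7, Dnajb8, Dnajb13, Dnajc5b, Dnajc5g, Dnajc22, Hspa1l, Hspb2, Hspb7 and Hspb9. Dnajb8 and Dnajc5g had 0 counts in both replicates, which allows up to 0.206 and 0.184 TPM for Dnajb8 and 0.187 and 0.167 TPM for Dnajc5g (3 counts per library, counting error only). Dnajb3 came nearest to detection at 0.63 in replicate 1 and 1.12 TPM in replicate 2, from 12 and 24 counts. Cct6b, Dnajb3, Dnajb8, Hspa1l and Hspb9 are known chiefly from testis.

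Stress-inducible and constitutive members were compared as lists of genes assigned to either behaviour, drawn up with earlier results of these data known. The inducible list holds 8 genes that heat shock factor 1 is known to drive: Hspa1a, Hspa1b, Hsph1, Dnajb1, Dnaja4, Hspb1, Hsp90aa1 and Bag3. The constitutive list holds 16 genes taken here as constitutive: Hspa8, Hspa2, Hspa4, Hspa4l, Hspa14, Hsp90ab1, Dnaja1, Dnaja2, Dnajb2, Dnajb6, Dnajb12, Dnajb14, Dnajc5, Dnajc7, Bag1 and Bag6. Whether each of these 16 is free of induction by stress was not tested. All genes of both lists were detected, and 5 of the 8 inducible genes stood below every constitutive gene by mean TPM, while 2 stood above the constitutive median. The median of the inducible list was 12.9 in replicate 1 and 12.2 TPM in replicate 2, against 79.2 and 78.0 TPM for the constitutive list, a log2 ratio of -2.62 in replicate 1 and -2.67 in replicate 2. Over the replicates that is 12.5 ± 0.47 TPM against 78.6 ± 0.87 TPM (SD, n = 2), where the SD describes the replicates and not the spread of genes within a list. Which genes are listed sets these medians. The inducible genes summed to 12.4% of chaperone TPM in replicate 1 and 12.7% in replicate 2, against 50.9% and 51.3% for the constitutive genes.

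The inducible list was split. Hsp90aa1 and Hsph1, given above, stood above the constitutive median, while 5 genes were below every constitutive gene in both replicates: Dnaja4, Hspb1, Hspa1b, Hspa1a and Bag3. Dnajb1, which makes the main heat-induced HSP40, lay between at 28.4 in replicate 1 and 24.5 TPM in replicate 2. These places are those of the gene table. In the second transcript table Dnaja4 stood above the constitutive Hspa14 in replicate 2, at 31.2 and 31.0 TPM. Hspa1b, 1 of the pair of heat-induced HSP70 genes (ENSMUSG00000090877.3, chromosome 17, 34956436 to 34959238, minus strand), stood at 6.75 in replicate 1 and 4.33 TPM in replicate 2. Its copy Hspa1a (ENSMUSG00000091971.3, chromosome 17, 34969190 to 34972156, minus strand) stood at 5.03 and 4.71 TPM. In the order of inducible levels the ranges of both replicates overlapped only between Hspa1b and Hspa1a. Those copies share 49.9% of the 100-base windows of Hspa1b, so the split between them is uncertain, and their sum is the safer value, 11.8 in replicate 1 and 9.04 TPM in replicate 2.

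**Figure D2:**
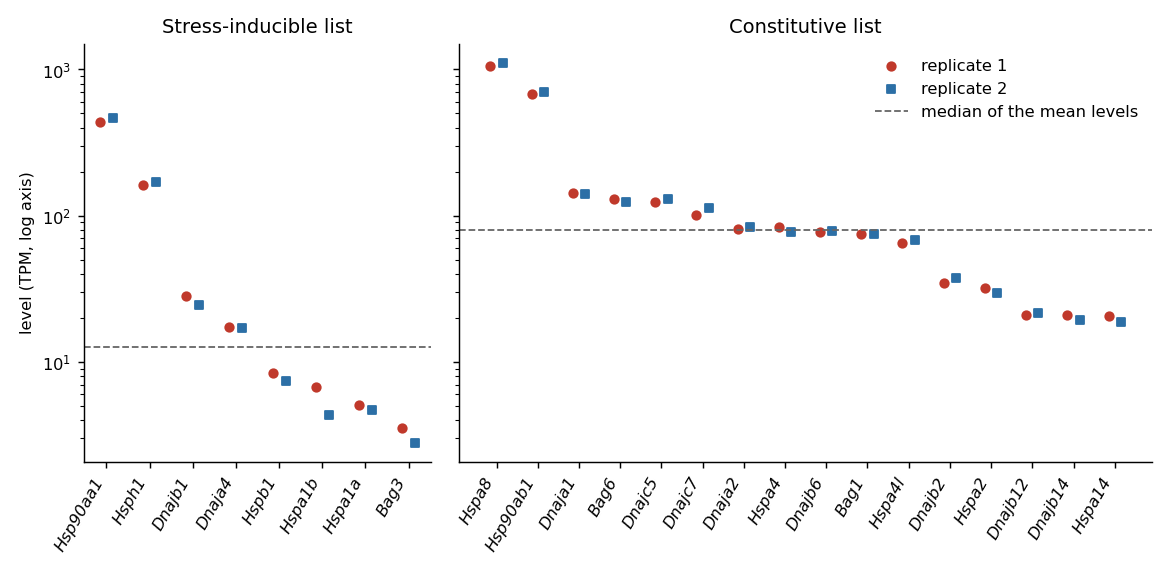
Level in TPM (log axis) of the 8 stress-inducible genes (left) and the 16 constitutive genes (right), replicate 1 as red circles left of replicate 2 as blue squares, with the median of the mean levels dashed (12.5 and 78.6 TPM). Hsp90aa1 and Hsph1 stand above the constitutive median, and 5 inducible genes stand below the lowest constitutive gene.

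Set against its constitutive counterpart within each sample, the inducible form ranged from a trace to the larger partner. Such ratios do not depend on how the libraries are scaled. Hspa1a plus Hspa1b over Hspa8 was -6.48 on the log2 scale in replicate 1 and -6.94 in replicate 2, so HSC70 transcripts outnumbered those of both heat-induced HSP70 genes by 105-fold on average. Bag3 over Bag1 was -4.41 in replicate 1 and -4.76 in replicate 2. Dnajb1 over Dnaja2 was -1.50 and -1.76. By contrast, Hsp90aa1 over Hsp90ab1 was -0.63 in replicate 1 and -0.58 in replicate 2, and Hsph1 over Hspa4 was the only positive ratio of the 5, at 0.95 and 1.12. The order of the 5 ratios was the same in both replicates, and their SD over the replicates (n = 2) ran from 0.034 for Hsp90aa1 over Hsp90ab1 to 0.32 for the HSP70 pair. The HSP90 ratio turned on the table used: from the second transcript table it was 0.0040 in replicate 1 and -0.049 in replicate 2, so neither form led there. Expected counts, which are not corrected for transcript length, moved the other 4 ratios by over 1.5-fold, to means of -6.001 for the HSP70 pair, -3.55 for Bag3, -1.03 for Dnajb1 and 0.22 for Hsph1.

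The promoters of these genes show which of them carry the heat shock factor's letters near their start. RefSeq promoters (GRCm38.p6, 250 bases before to 50 after each annotated start) matched 70 of the 86 genes by symbol. The other 16 are Bag4, Cct4, Dnajc11, Dnajc12, Dnajc18, Dnajc2, Dnajc22, Dnajc30, Dnajc5, Dnajc5b, Hsp90aa1, Hsp90ab1, Hspa13, Hspa8, Hspa9 and Hspb2. Searched were the heat shock element of 2 units, GAANNTTC or TTCNNGAA, and of 3 units, GAANNTTCNNGAA or TTCNNGAANNTTC, in which the shorter element lies within the longer. These letters read the same on both strands for 2 units, and both strands were searched for 3. Of all 32851 promoters, 15.1% held the 2-unit element and 0.603% the 3-unit element. By gene, 6 of the 7 inducible genes with a promoter held a 2-unit element (Hspa1a, Hspa1b, Hsph1, Dnaja4, Hspb1 and Bag3), against 2 of 13 constitutive genes (Dnaja1 and Dnajb6) and 17% of all genes. Of all 70 members with a promoter, 20 (28.6%) held it. Among them were genes of neither list, such as Cct2, Cct5, Dnajb4, Hspb8, Hspd1 and Hspe1. The 3-unit element was found in Hsph1 among inducible and Dnajb6 among constitutive genes, and in the mitochondrial pair Hspd1 and Hspe1, whose promoter windows overlap. A match is a description of letters, not of binding, and Dnajb1 without a match in this window says only that.

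The windows of the HSP70 pair and of the inducible genes below are shown because they belong to genes of very different level, with the matched element in capitals. Hspa1a lies at chr17:34972107-34972406 and Hspa1b at chr17:34959189-34959488, both on the minus strand. Both are written 5′ to 3′ from position -250 to +50, and the 300 bases of the copies differ at 4 positions, with 98.7% identity and an identical run of 201 bases. The 2-unit element stands at -104 to -97 in both. Hsph1, on the minus strand at chr5:149636266-149636565, has 1 element of 2 units before the start and 1 of 3 units after it. For Hspb1 (chr5:135887756-135887875, plus strand) 120 bases around the matches are given, and for the constitutive Dnajb6 (chr5:29735798-29735917, plus strand) as many around its 3-unit element. For Bag3 (chr7:128523513-128523632, plus strand) the 120 bases end with its match, which stands after the start at +43 to +50.
Hspa1a: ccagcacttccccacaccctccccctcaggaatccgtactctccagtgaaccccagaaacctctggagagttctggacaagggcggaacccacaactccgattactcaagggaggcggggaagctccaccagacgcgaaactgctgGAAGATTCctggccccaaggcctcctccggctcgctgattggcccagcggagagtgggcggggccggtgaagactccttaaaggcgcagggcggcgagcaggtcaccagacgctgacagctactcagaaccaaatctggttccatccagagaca
Hspa1b: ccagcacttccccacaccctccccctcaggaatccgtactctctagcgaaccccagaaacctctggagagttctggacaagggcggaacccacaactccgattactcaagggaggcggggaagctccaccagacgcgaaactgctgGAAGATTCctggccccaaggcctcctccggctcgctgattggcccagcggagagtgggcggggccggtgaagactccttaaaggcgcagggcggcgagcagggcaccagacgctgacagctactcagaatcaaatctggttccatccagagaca
Hsph1: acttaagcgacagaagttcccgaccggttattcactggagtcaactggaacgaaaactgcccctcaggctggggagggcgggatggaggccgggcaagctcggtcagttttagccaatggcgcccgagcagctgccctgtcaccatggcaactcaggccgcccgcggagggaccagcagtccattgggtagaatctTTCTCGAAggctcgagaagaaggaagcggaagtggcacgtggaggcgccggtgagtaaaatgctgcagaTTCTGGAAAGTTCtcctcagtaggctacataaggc
Hspb1: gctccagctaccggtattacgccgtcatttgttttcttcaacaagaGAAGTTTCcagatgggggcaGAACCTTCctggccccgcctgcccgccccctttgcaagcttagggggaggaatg
Bag3: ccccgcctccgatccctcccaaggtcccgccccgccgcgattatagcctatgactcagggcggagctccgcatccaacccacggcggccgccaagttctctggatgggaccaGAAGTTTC
Dnajb6: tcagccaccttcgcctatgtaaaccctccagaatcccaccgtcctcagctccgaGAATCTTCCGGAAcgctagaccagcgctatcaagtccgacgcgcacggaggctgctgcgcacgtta

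The shared promoter of Hspd1 and Hspe1 is shown on the strand of Hspe1 (chr1:55088008-55088127, plus strand), with its overlapping 3-unit elements in capitals.
Hspe1: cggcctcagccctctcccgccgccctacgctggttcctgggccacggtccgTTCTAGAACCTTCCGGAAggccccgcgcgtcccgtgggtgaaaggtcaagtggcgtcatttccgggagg

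Members of the endoplasmic reticulum and of mitochondria stood at middling levels as groups. The 8 genes of the endoplasmic reticulum list had a median of 23.0 in replicate 1 and 24.4 TPM in replicate 2, led by Hspa5 and Hsp90b1, and made 8.86% and 8.54% of chaperone TPM. The 8 mitochondrial genes had a median of 30.6 and 29.6 TPM in replicates 1 and 2 and made 5.73% and 5.69%. The endoplasmic reticulum stress element, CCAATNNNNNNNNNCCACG or its reverse complement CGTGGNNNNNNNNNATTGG, was in 0.119% of all promoters. It was found in 3 of the 7 genes of the endoplasmic reticulum list with a promoter (Hspa5, Hsp90b1 and Dnajc3) and in none of the other members that have one. Hsp90b1 held 2 copies, and both are in the stretch below. The element is in capitals in Hspa5 (chr2:34771840-34772139, plus strand), Hsp90b1 (chr10:86705525-86705664, minus strand) and Dnajc3 (chr14:118937776-118937895, plus strand), which stood at 196, 155 and 19.1 TPM in replicate 1 and at 186, 157 and 18.0 TPM in replicate 2.
Hspa5: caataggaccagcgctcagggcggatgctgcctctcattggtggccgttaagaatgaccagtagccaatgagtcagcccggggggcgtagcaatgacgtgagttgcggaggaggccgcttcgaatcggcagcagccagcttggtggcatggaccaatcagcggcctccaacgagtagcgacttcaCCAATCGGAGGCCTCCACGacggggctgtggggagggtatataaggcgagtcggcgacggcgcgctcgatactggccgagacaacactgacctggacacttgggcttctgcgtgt
Hsp90b1: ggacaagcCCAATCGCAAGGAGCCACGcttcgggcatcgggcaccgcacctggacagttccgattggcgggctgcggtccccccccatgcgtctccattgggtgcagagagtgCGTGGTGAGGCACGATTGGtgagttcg
Dnajc3: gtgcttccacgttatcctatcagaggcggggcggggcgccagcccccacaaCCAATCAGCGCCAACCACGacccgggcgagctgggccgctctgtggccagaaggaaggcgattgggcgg

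The replicates were close to each other over the chaperone genes. Of the 86, 75 had a mean expected count of at least 10 and were compared. Their median log2 difference was -0.01, beside 0.03 over all 18136 genes compared, and the median size of a difference was 0.079, beside 0.114 over all genes. All genes include more with low counts. At a mean count of at least 100 the median size was 0.072 for 70 members, beside 0.091 for 12605 genes. At least 1.5-fold higher in replicate 1 were 2 of the 75, Hspb6 and Hspa1b, where 2.23% of all genes were. Hspa1b passed narrowly, and under a pseudocount of 1 or posterior mean TPM, and with TPM of the second table, neither gene reached 1.5-fold. At least 1.5-fold lower were 0 of the 75, where 1.54% of all genes were. With 1 sample against 1 there is no test, and these counts are near the background.

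**Figure D3:**
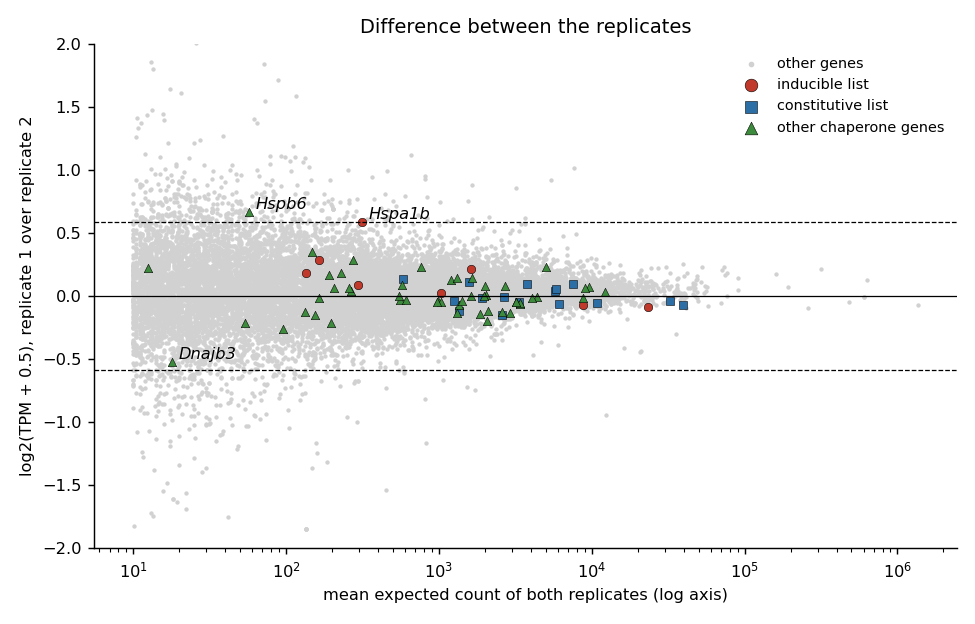
Log2(TPM + 0.5) of replicate 1 over replicate 2 against mean expected count (log axis) for the 75 compared chaperone genes (coloured by list) and all other genes compared (grey). The dashed lines mark 1.5-fold, 27 other genes beyond 2 on the log2 scale are not drawn, and among chaperone genes Hspb6 and Hspa1b reach the upper dashed line, at 0.67 and 0.59.

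Hspb6, a small heat shock protein gene best known from muscle, stood at 3.85 in replicate 1 and 2.24 TPM in replicate 2, a log2 difference of 0.67. It rests on 62 and 53 counts, and its counting interval, the exact binomial 95% interval of the TMM-scaled counts, ran from -0.20 to 0.91 and includes 0. In the second transcript table its difference was 0.17. Hspa1b had 367 expected counts in replicate 1 and 264 in replicate 2, a log2 difference of 0.59 with a counting interval of 0.37 to 0.84. The copy Hspa1a had 290 and 304 counts, a difference of 0.09. Taken as 1 gene, with the split between the copies removed, Hspa1a plus Hspa1b was higher in replicate 1 by 0.34 on TMM-scaled counts, with a counting interval of 0.18 to 0.51. Next in size were Dnajc25 at 0.35, Bag3 at 0.29 and Hspa12b, known from endothelium, at 0.29. The counting interval of Dnajc25, 0.10 to 0.79, left out 0. Those of Bag3, -0.01 to 0.63, and Hspa12b, -0.06 to 0.43, included it. In the other direction stood Dnajb3 at -0.52, on fewer than 25 counts per replicate, Hspb11 at -0.26 (0.02 in the second table), Hspb3 at -0.22, Bag2 at -0.21 and Cct3 at -0.20. Of these 5 only the counting interval of Cct3, -0.23 to -0.05, left out 0.

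The inducible list had a median difference of 0.13, with 6 of 8 genes higher in replicate 1 by TPM and by TMM-scaled counts, and the constitutive list one of -0.03, with 6 of 16 higher by TPM and 3 of 16 by TMM-scaled counts. Of all genes compared, 57.8% were higher in replicate 1 by TPM and 49.9% by TMM-scaled counts. The direction of the inducible list depended on the table: 4 of the 8 were higher in the second transcript table, where 54.1% of all genes were, with a median of 0.02. Scaled to the spike-ins, all genes shifted to a median of -0.14, and the inducible list stood at -0.04 and the constitutive list at -0.19. Counting intervals above 0 were found for 2 inducible genes, Hspa1b and Dnajb1, and intervals below 0 for the abundant pair Hsp90aa1 and Hsph1. Dnajb1 had 1656 expected counts in replicate 1 and 1595 in replicate 2, a log2 difference of 0.21 with an interval of 0.08 to 0.29.

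Some other gene lists differed between the replicates alongside. Of all genes compared, 57.8% were higher and 41.5% lower in replicate 1 by TPM, and 2.23% were at least 1.5-fold higher. All 8 immediate early genes, which neurons transcribe on activity, were higher in replicate 1, with a summed level of 537 TPM there and 313 TPM in replicate 2, a median log2 difference of 0.80 and 6 genes at least 1.5-fold higher. All 5 red blood cell genes were higher in replicate 1, with sums of 1030.3 and 727 TPM. All 8 oligodendrocyte genes were lower in replicate 1, with sums of 874 and 1169.5 TPM, and all 6 choroid plexus genes were lower, with sums of 22.2 and 199 TPM, of which Ttr made 19.5 and 192 TPM and only 2 of the 6 genes were detected. Astrocyte genes were higher in replicate 1 for 5 of 6, with a median log2 difference of 0.16. The neuronal, microglial, endothelial and mural lists had medians of 0.02, -0.01, -0.02 and 0.02. No marker of these lists was at 0 in either replicate. Their part in the chaperone differences was not tested.

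The CCT genes of the set differed in one direction. All 6 compared subunit genes were lower in replicate 1 by TPM and by TMM-scaled counts, with a median log2 difference of -0.13, where 41.5% of all genes were lower in replicate 1 by TPM and 50.1% by TMM-scaled counts. All 6 counting intervals lay below 0, from Cct5 with 2586 and 3220 expected counts (-0.26 to -0.11) to Cct4 with 1713 and 2023 (-0.20 to -0.02). By the second transcript table Cct8 stood at 0.01 and the other 5 were lower, and scaled to the spike-ins the CCT median was -0.28 beside the shift of all genes to -0.14. Tcp1, the subunit gene outside the symbol rule, had a difference of -0.02 by TPM and -0.14 by TMM-scaled counts. Cct6a, a further subunit gene that the rule did not take, had 77.9 in replicate 1 and 77.3 TPM in replicate 2, a difference of 0.01 by TPM, 0.11 in the second table and -0.04 by TMM-scaled counts, with a counting interval of -0.12 to 0.04. The 3 HSP90 genes were also lower in replicate 1, by -0.09 for Hsp90aa1, -0.04 for Hsp90ab1 and -0.02 for Hsp90b1. In the HSP70 family 8 of 10 compared genes were higher in replicate 1 by TPM and by TMM-scaled counts, where 57.8% and 49.9% of all genes were, and 2 of 10 when scaled to the spike-ins, which shifted all genes down. Hspa8 stood at -0.07 by TPM. Of all 75 genes, the counting interval lay above 0 for 6 and below 0 for 16, where it lay above 0 for 11.6% and below 0 for 9.88% of all genes compared. Intervals narrow with the count, and over all genes compared the squared difference averaged 5.58 times what counting error gives, so an interval that leaves out 0 is common.

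**Figure D4:**
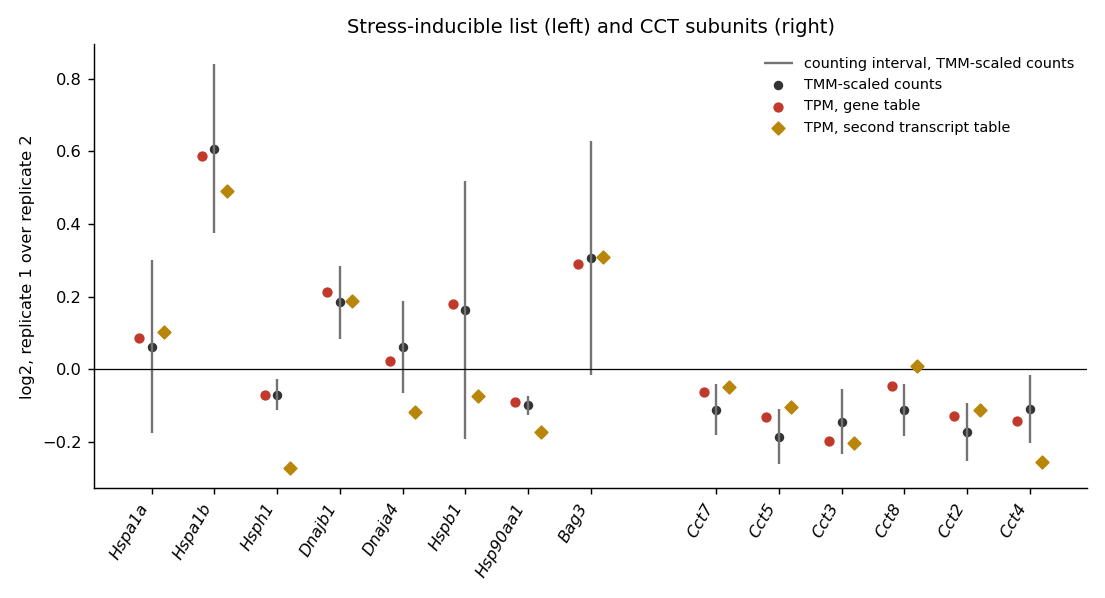
Log2 of replicate 1 over replicate 2 for the 8 stress-inducible genes (left) and the 6 compared CCT genes (right), from TPM (red), TMM-scaled counts (black, with the 95% counting interval as a grey line) and the second transcript table (yellow diamonds). Hspa1b stands highest at 0.59 by TPM, and the 6 CCT intervals lie below 0 while the second table puts Cct8 at 0.01.

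Regulators and partners outside the symbol rule were measured as well. All 38 co-factors, regulators and related chaperones of the list were detected, with a median of 41.6 in replicate 1 and 39.6 TPM in replicate 2. Hsf1, the gene of the factor that drives the heat shock response, stood at 25.4 and 25.0 TPM, Hsf2 at 13.4 and 13.0 TPM, and Hsf4 at 3.20 and 3.03 TPM. Of the 38, 1 was at least 1.3-fold higher in replicate 1 and 0 were as much lower, where 6.59% of all genes were higher and 4.03% lower by that fold. That gene was Fkbp5, an HSP90 co-chaperone and a known glucocorticoid target, at 31.3 in replicate 1 and 20.3 TPM in replicate 2, a log2 difference of 0.61 with a counting interval of 0.50 to 0.70. The cold-response genes Cirbp and Rbm3 differed in opposite directions: Cirbp had 32.4 and 39.4 TPM in replicates 1 and 2, and Rbm3 64.8 and 53.6 TPM. Among 13 genes of the unfolded protein response, all detected, 9 were higher and 4 lower in replicate 1 by TPM, and none differed by 1.3-fold. Of all genes compared, 57.8% were higher by TPM. The direction depended on the scaling: by TMM-scaled counts Pdia4, Pdia6 and Manf, higher by TPM, were lower in replicate 1, at -0.024, -0.055 and -0.002.

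Transcripts of 1 gene can be spliced to a protein-coding form or to forms that do not code for the full protein. Over the transcripts of all members, protein-coding transcripts took 83.3% of TPM in replicate 1 and 84.0% in replicate 2. Retained introns took 6.997% and 6.82%, processed transcripts 6.46% and 6.18%, and transcripts marked for nonsense-mediated decay 3.20% and 3.04%. Over 14537 detected protein-coding genes the protein-coding share was 85.2% in replicate 1 and 85.9% in replicate 2. Some members departed from that. In Cct7 the leading transcript was Cct7-202, marked for nonsense-mediated decay, with 47.63% in replicate 1 and 47.45% in replicate 2 (48.85% and 49.4% in the second table). The retained-intron transcript Dnaja2-202 of 507 bases took 37.7% of Dnaja2 in replicate 1 and 38.2% in replicate 2 (52.5% and 54.4% in the second table). In Cct3 a retained-intron transcript of 472 bases took 39.6% and 43.8% in the first table, but 0% and 7.60% in the second. Dnajc15, of the mitochondrial import machinery, had 77.2% and 76.6% of its TPM in transcripts that are not protein-coding, and 86.5% and 86.2% in the second table.

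The transcript tables, made with different programs to judge by their column names, gave the members nearly the same order and different splits, though genes of close level such as the CCT genes changed places. Across the 86 genes the rank correlation of mean levels between the gene table and the second table was 0.993, a description across genes measured in the same libraries. The level of a detected member in the second table was a median of 1.67 times that in the gene table, from 1.05 for Cct3 to 2.67 for Dnajc11. Of 67 detected members with several transcripts, 48 had the same leading transcript in both tables and both replicates. Hspa8 was not among them: Hspa8-201 took 30.3% in replicate 1 and 32.2% in replicate 2 in the first table, against 78.3% and 76.8% in the second, and Hspa8-202 took 45.6% and 44.7% in the first, against 4.2e-10% and 0.13% in the second. For Hsp90aa1 the short transcript Hsp90aa1-207 of 481 bases took 1.48% and 1.19% in the first table, against 42.1% and 45.8% in the second. In Hsph1, Hsph1-211 led in the first table with 40.4% and 39.1%, and Hsph1-201 in the second with 27.6% and 23.95%.

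**Figure D5:**
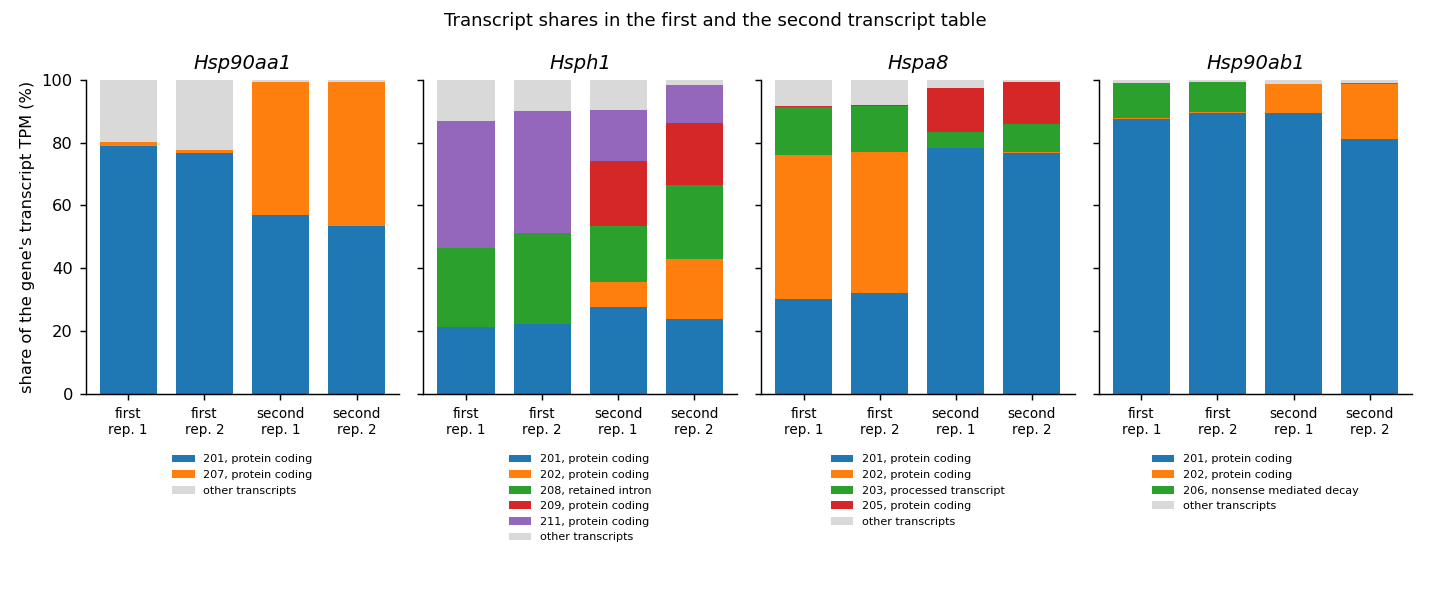
Share in percent of a gene's transcript TPM, for Hsp90aa1, Hsph1, Hspa8 and Hsp90ab1, in the first table (replicates 1 and 2) and the second table (replicates 1 and 2). Hspa8-202 takes 45.6% and 44.7% in the first table and almost nothing in the second, Hsp90aa1-207 takes 42.1% and 45.8% in the second, and in that table the replicates differ for Hsph1-202 (8.07% and 19.1%) and Hsp90ab1-202 (9.48% and 17.4%).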

How the data were processed

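Total RNA-seq tables of 2 libraries of 1 group were used. For each, the authors deposited a table of genes and a pair of transcript tables (mm10, GENCODE M21 annotation), per the labels and the file list. Per the file headers, the deposited gene table and first transcript table give expected counts (estimates, not always whole), TPM, posterior mean TPM and credibility bounds. The other transcript table, also deposited by the authors, gives estimated counts and TPM. Which programs made them, and whether counting used strand, is not given in the sources used here. All TPM values of a table add to a fixed total, so abundant short RNAs lower every other gene. Length less effective length is 99 bases, as for reads of 100 bases. Left out of library sizes were 26248 numbered rows that name no gene, with 7 and 10 counts (2.3e-05% and 3.0e-05% of all counts). Depth was 30503944 and 33263801 expected counts, and intervals and limits (3 counts) describe counting error alone, because PCR copies cannot be told from separate molecules.

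Members and lists were chosen with earlier results of these data known. Named are all inducible and paired genes, the 4 highest and the lowest of each family, the 5 largest differences each way, undetected members, heat shock factor genes and pathway genes 1.3-fold apart, and further genes where a count or statement singles them out, chosen after their values were seen. Differences used a pseudocount of 0.5 TPM and a minimum mean count of 10. TMM scaling used edgeR 4.0.16 and size factors DESeq2 1.42.0 on rounded counts in R 4.3.3, with scipy 1.17.1, pandas 2.3.3, numpy 2.4.6 and matplotlib 3.10.9 under Python 3.11.15. Alternatives were other pseudocounts, count minimums, scalings, tables, denominators and single replicates. The TMM difference of replicate 1 over replicate 2 was tried on simulated data of 12606 genes. It recovered 100 of 100 genes changed 4-fold and 100 of 100 changed 2-fold at 1.5-fold or more. It called 13 of 12406 unchanged genes. The comparison made used TPM + 0.5 on 18136 genes, of which 2.23% were 1.5-fold higher and 1.54% lower in replicate 1. The simulation left out many of these genes and used another measure. It therefore cannot say how reliable the calls of the comparison made are. Shared sequence was counted as 100-base windows of GENCODE M21 transcripts found in another gene.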

Additional observations from a re-analysis of the deposited data

Results flagged for a closer look

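A signal appears in a gene outside the 86. Cct6a, which makes the zeta subunit of the cytosolic chaperonin, matches the symbol pattern, but the annotation used here gives it no protein-coding transcript (gene type processed transcript), so the rule did not take it. It stood at 77.9 in replicate 1 and 77.3 TPM in replicate 2, a mean of 77.64 TPM on 2585 and 2911 expected counts, which is far above the limit that a count of 0 allows (0.0905 and 0.0797 TPM). That places it within the 45.2 to 91.6 TPM of the 6 detected CCT genes. Its log2 difference was 0.01 by TPM and -0.04 by TMM-scaled counts, with a counting interval of -0.12 to 0.04.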

How the results depend on the processing

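No paired analysis was possible because the labels give 1 group. Of 197 values recomputed under an alternative, 164 stayed within the spread of the main value (or, for counts of genes, within 1.5 times it), 33 moved and 0 turned a called direction. The 164 are no measure of stability. Levels, ratios and shares with a replicate left out stay within the SD by construction. For single genes the spread came from the counting interval, which is wide at low counts. Thus Hspb11 counts as unmoved though it went from -0.26 to 0.02 in the second transcript table. Of the 75 compared members, 55 kept the sign of their difference under 6 alternatives (TMM, DESeq2 size factors, second table, posterior mean, pseudocounts 0.1 and 1), 20 higher and 35 lower in replicate 1. Spike-in scaling shifted the median of all genes to -0.14, and with it that of all members to -0.19 and of the constitutive list to -0.19. In the second transcript table the summed level was 8973 TPM, the list medians 21.7 (inducible) and 145.8 TPM (constitutive), Hsp90aa1 over Hsp90ab1 -0.022, Hsph1 over Hspa4 0.86, Dnajb1 over Dnaja2 -2.07 and the protein-coding share 86.6%. Posterior mean TPM gave a sum of 5333 TPM. Rescaled to protein-coding genes the sum was 11340 TPM and the medians 26.1 (inducible) and 163.6 TPM (constitutive). In expected counts, which carry transcript length, the pair ratios were -6.001 for Hspa1a plus Hspa1b over Hspa8, -0.48 for Hsp90aa1 over Hsp90ab1, 0.22 for Hsph1 over Hspa4, -1.03 for Dnajb1 over Dnaja2 and -3.55 for Bag3 over Bag1. The 2 members at least 1.5-fold apart became 3 with a pseudocount of 0.1 or no minimum count, 1 with at least 100 counts, and 0 with a pseudocount of 1, the second table, posterior mean TPM, and CPM scaled by TMM, DESeq2 size factors or spike-ins with a pseudocount of 0.5. TMM-scaled counts with nothing added, which stand behind the counting intervals, gave 3 (Hspa1b, Dnajb3 and Hspb7), an alternative chosen after seeing the data. The cause of these moves was not tested, beyond what rescaling and length do by construction. Leaving out a replicate, the sum ranged from 5392 to 5502 TPM. Depth limits the 5 compared members under 100 counts (Dnajb3, Hspb3, Hspb6, Hspb7 and Hspb11), whose counting intervals all include 0.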
